A study of Mus musculus with 57 samples.

Results

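Aquaporins are tetrameric membrane channels, each subunit forming its own pore. Most conduct water along osmotic gradients, and the aquaglyceroporins among them also conduct glycerol. In the colon, water follows the salt that surface epithelial cells absorb, through and between those cells. The 6 genes described here, Aqp1, Aqp3, Aqp4, Aqp7, Aqp8 and Aqp11, were chosen by name, with earlier results of these data known. Each was read from its only probe set that the array's annotation pairs with a single gene. They were 6 of the 12 aquaporin family genes measured and 6 of 22180 genes tested. They divide by known role. Aqp8, Aqp4 and Aqp11 are found in colonocytes, where Aqp8 also conducts ammonia and hydrogen peroxide, Aqp4 is a water channel of the basolateral membrane and Aqp11 is an unorthodox member held in intracellular membranes. Aqp3 and Aqp7 are aquaglyceroporins, Aqp3 of the basolateral membrane of epithelia and the basal layers of stratified epithelium, and Aqp7 best known from adipocytes. Aqp1 is the water channel of capillary endothelium and red blood cells.

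RNA was measured on 57 arrays of distal colon and of colon tumors from female C57BL/6 mice aged 18 to 24 weeks. INSRfl/fl mice carry a floxed insulin receptor gene and served as the littermate controls of villin-CRE-INSR-/- mice, called knockout below. Cre under the villin promoter acts in the intestinal epithelium, so stromal, muscle, vascular and immune cells of the knockout colon keep the receptor. Untreated colon came from 10 fl/fl and 10 knockout mice. Colon after AOM+DSS came from 10 and 10 mice that had received AOM (azoxymethane, a carcinogen, 7.4 mg/kg). In week 2 these mice then received DSS (dextran sulfate sodium, which injures the epithelium) at 3% for 7 days. Tissue was taken in week 5 by the labels, which do not settle the interval from the end of DSS to collection. Tumors of mice treated in the same way came from 8 fl/fl and 9 knockout samples. Whether some tumors and colon samples came from 1 mouse is not given in the labels, nor whether the AOM+DSS colon was free of tumor. The labels also do not say where in the colon the tumors lay. All levels are log2 expression values, and levels of different genes are not compared, because each probe set has its own response.

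Aqp8 and Aqp11 both fell in knockout colon after AOM+DSS and in tumors, and Aqp3 rose after AOM+DSS, so the upstream sequences of these 3 genes are shown. Each is the 250 bases before the RefSeq start of the gene on assembly GRCm38.p6, written 5′ to 3′ in the sense of the gene. Aqp8 lies on the plus strand (window chr7:123462044-123462293), and Aqp11 and Aqp3 lie on the minus strand (chr7:97738248-97738497 and chr4:41098184-41098433). Capitals mark matches, on either strand, to the motifs searched.
Aqp8: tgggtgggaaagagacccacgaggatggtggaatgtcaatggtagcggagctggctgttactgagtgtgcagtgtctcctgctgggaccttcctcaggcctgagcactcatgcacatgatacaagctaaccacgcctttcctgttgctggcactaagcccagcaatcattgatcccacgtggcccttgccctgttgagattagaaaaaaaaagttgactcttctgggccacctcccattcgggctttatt
Aqp11: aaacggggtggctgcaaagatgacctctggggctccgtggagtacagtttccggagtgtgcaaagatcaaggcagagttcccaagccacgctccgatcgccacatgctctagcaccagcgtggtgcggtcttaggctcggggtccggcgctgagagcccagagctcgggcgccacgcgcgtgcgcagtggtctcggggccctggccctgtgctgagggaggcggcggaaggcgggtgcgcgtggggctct
Aqp3: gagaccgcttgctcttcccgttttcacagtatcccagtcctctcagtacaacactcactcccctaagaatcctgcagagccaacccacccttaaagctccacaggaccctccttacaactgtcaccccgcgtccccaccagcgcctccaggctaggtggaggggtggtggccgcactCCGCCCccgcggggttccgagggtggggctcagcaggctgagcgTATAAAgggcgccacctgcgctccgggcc
The motifs were TATAAA (the TATA box), GGGCGG (the Sp1 box), CCAAT (bound by NF-Y), CTTTGAT (Tcf/Lef factors), TTTATG (Cdx2), CAAAGTCC (Hnf4a) and TGTTCT (a half-site of the corticosteroid receptors Nr3c1 and Nr3c2). The Aqp8 and Aqp11 windows held no match to any of the 7. The Aqp3 window held TATAAA starting 29 bases before the start, as did 12.4% of all 32851 windows of this length anywhere within them, and GGGCGG on the opposite strand starting 73 bases before it, as did 32.7%. Those matches do not overlap. CCAAT occurred in 33.8% of windows, TGTTCT in 16.1%, TTTATG in 10.8%, CTTTGAT in 3.21% and CAAAGTCC in 1.2%. The share of G and C was 67.2% in the Aqp11 window, 64% in that of Aqp3 and 52.4% in that of Aqp8, and the median over all windows was also 52.4%. Aqp3 and Aqp7 are neighbours on chromosome 4, with the small nuclear RNA gene Gm25637 as the only gene annotated between them. The gene bodies span chr4:41092724-41098183 for Aqp3, chr4:41033074-41048237 for Aqp7, chr6:55336299-55348555 for Aqp1, chr7:123462294-123468003 for Aqp8 and chr7:97726379-97738247 for Aqp11.

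Array medians lay between 5.92 and 6.04, and the highest correlation between any pair of arrays was 0.994. Insr, the targeted gene, differed between knockout and fl/fl by -0.94 ± 0.10 in untreated colon, -0.84 ± 0.10 after AOM+DSS and -0.65 ± 0.11 in tumors on the log2 scale (knockout minus fl/fl, limma, ± SE, adjusted p = 6.71e-09, 2.32e-07 and 0.00234), and which part of Insr the probe set reads was not determined here. In tumors Insr went against 2 labels. The library labelled knockout tumor replicate 8 stood at 8.35, above 6 of the 8 fl/fl tumors, while the other 8 knockout tumors lay between 7.17 and 7.79. The library labelled fl/fl tumor replicate 5 stood at 7.70, while the other fl/fl tumors lay between 8.09 and 8.50. Both were kept as labelled. Without that knockout library, the changes of the 6 aquaporins between AOM+DSS colon and knockout tumors were -0.47 for Aqp1, -1.75 for Aqp3, -1.28 for Aqp4, -0.31 for Aqp7, -3.74 for Aqp8 and -0.94 for Aqp11, all with an adjusted p under 0.05 in limma, and their knockout differences in tumors again did not pass. Leaving out that fl/fl library changed no call of the 6. Means in untreated colon were set against 5.16, the 25th percentile of all genes' highest group means. All 11 surface colonocyte markers, 8 goblet markers and 6 distal colon position genes measured lay above it, against 2 of 5 proximal colon position genes. So did all 8 crypt base, 10 smooth muscle, 12 endothelial and 2 red blood cell genes. Of the squamous genes 12 of 13 did, and of the adipocyte genes 7 of 8. The cut is low, with the highest group means of 16635 of 22180 genes reaching it, so passing it does not single out a tissue.

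Between untreated colon and colon after AOM+DSS, Aqp3 rose and Aqp11 fell in both genotypes, and Aqp8 fell in knockout colon. In fl/fl colon 1 of the 6 aquaporins rose and 1 fell, where 22.7% of all genes tested passed the threshold in either direction (12.2% higher, 10.5% lower). In knockout colon 1 rose and 2 fell, where 30.2% of all genes passed (16% higher, 14.2% lower). The median change of the 6 was -0.12 in fl/fl and -0.20 in knockout colon, beside -0.04 over all genes in both. Between AOM+DSS colon and tumors more of the 6 fell. In fl/fl samples 5 of the 6 were lower in tumors, where 41.2% of all genes passed in either direction (21% higher, 20.2% lower), and in knockout samples 6 of 6 were lower, where 42.9% passed (21.5% higher, 21.4% lower). The median changes of the 6 were -1.30 and -1.08, beside 0.02 and 0.00 over all genes. The 6 were chosen with earlier results of these data known, so their counts are not a test of the family. Of the 6 other aquaporins measured, 0 passed in tumors against AOM+DSS colon in either genotype. Against untreated colon 4 of 6 were lower in fl/fl tumors and 5 of 6 in knockout tumors, where 45.4% and 47.3% of all genes passed (22.9% and 23.6% higher, 22.5% and 23.7% lower). None of the 6 was called higher in tumors. The comparisons of AOM+DSS colon with untreated colon and of tumors with AOM+DSS colon share the AOM+DSS colon samples, so their values are given side by side and not as separate evidence. In whole tissue, fewer cells of a type and less RNA per cell cannot be told apart.

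**Figure D1:**
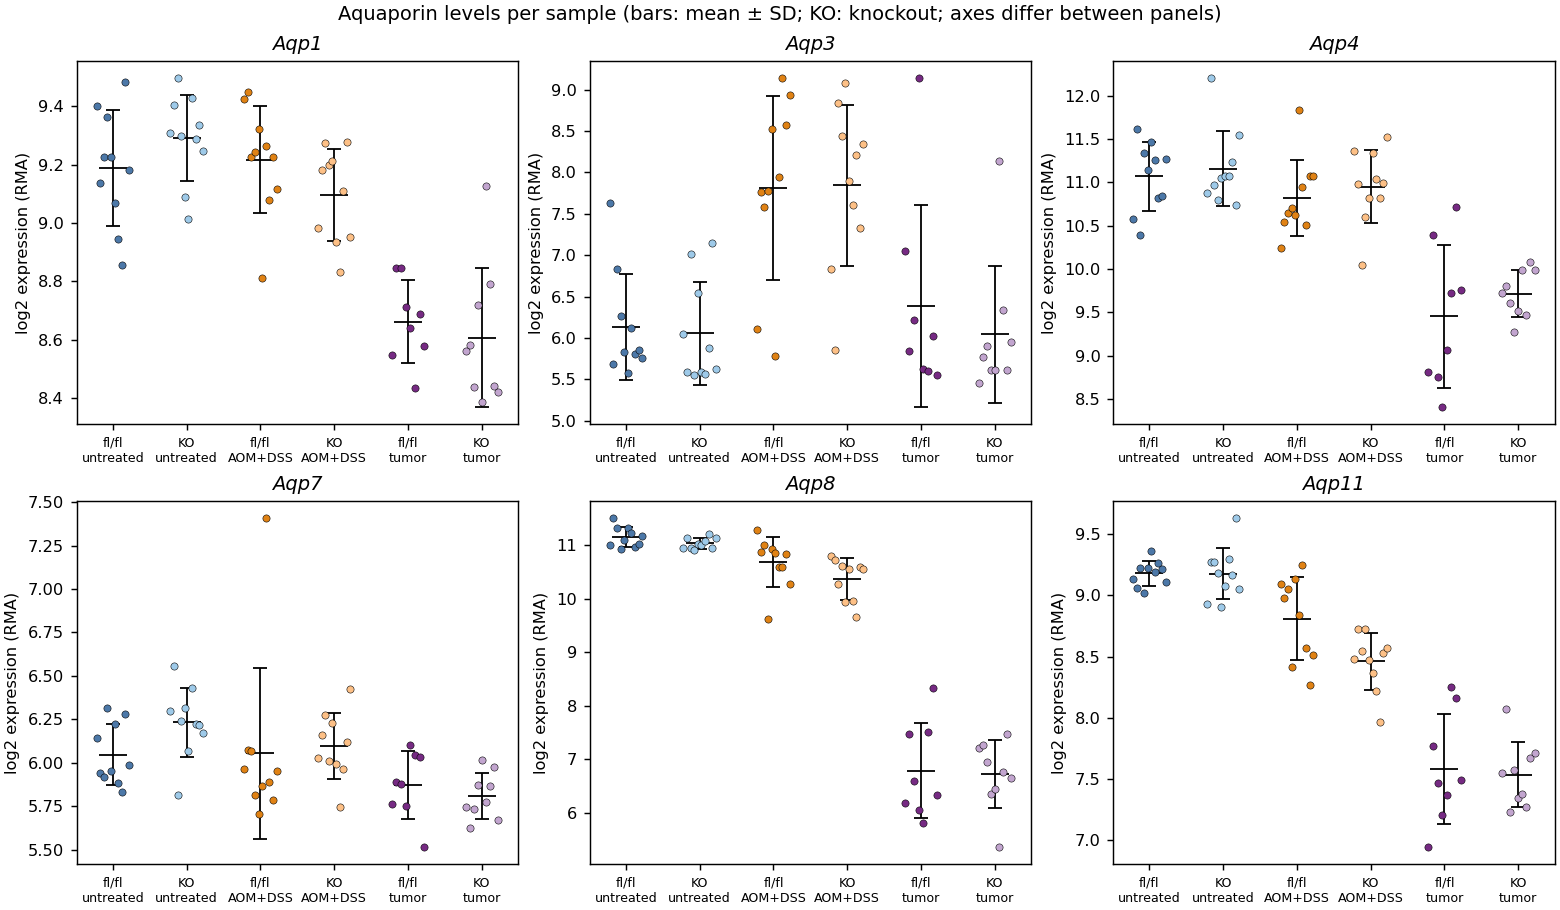
Log2 expression of each aquaporin in every sample (points) of the 6 groups, with the group mean and SD (bars); each panel has its own axis. The tumor samples of Aqp8, between 5.36 and 8.33, all lie below the colon samples, and the AOM+DSS colon samples of Aqp3 spread from 5.79 to 9.14.

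Aqp8 had the largest change of the 6 in each tumor comparison. In untreated colon its level ran from 10.92 through a median of 11.12 to 11.51 in the 10 fl/fl samples and from 10.91 through 11.003 to 11.21 in the 10 knockout samples. After AOM+DSS it ran from 9.61 through 10.84 to 11.28 in fl/fl colon and from 9.65 through 10.55 to 10.79 in knockout colon. In tumors it ran from 5.81 through 6.47 to 8.33 in 8 fl/fl and from 5.36 through 6.77 to 7.47 in 9 knockout samples. Every tumor thus lay below every colon sample of its genotype, and all 10 knockout AOM+DSS samples lay below all 10 knockout untreated ones, while the fl/fl AOM+DSS samples overlapped the untreated range. The share of all genes whose samples separated downward in this way was 6.38% for fl/fl tumors and 7.24% for knockout tumors against AOM+DSS colon, 8.26% and 7.95% against untreated colon, and 1.06% for knockout colon after AOM+DSS. The tumor level was 14.8-fold below AOM+DSS colon in fl/fl samples (log2 change -3.89 ± 0.22, limma, ± SE, adjusted p = 1.38e-21) and 12.5-fold below it in knockout samples (-3.64 ± 0.22, adjusted p = 5.53e-21). Against untreated colon it was 20.5-fold lower in fl/fl and 19.9-fold lower in knockout tumors. After AOM+DSS Aqp8 fell by 0.67 ± 0.21 in knockout colon (adjusted p = 0.012), and with the squamous or the surface colonocyte marker mean described below in the model the change was -0.46 and -0.28 (adjusted p = 0.12 and 0.205). In fl/fl colon the change was -0.47 ± 0.21 (adjusted p = 0.0999), which did not pass with the spread of all 6 groups and passed when only the compared groups were fitted (adjusted p = 0.0237).

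Aqp11 fell after AOM+DSS and again in tumors. Its level ran from 9.02 through a median of 9.20 to 9.36 in fl/fl and from 8.90 through 9.18 to 9.63 in knockout untreated colon. After AOM+DSS it ran from 8.27 through 8.91 to 9.24 and from 7.97 through 8.50 to 8.73. In tumors it ran from 6.94 through 7.48 to 8.25 and from 7.23 through 7.55 to 8.07. All 10 knockout AOM+DSS samples lay below the knockout untreated range, and all 8 fl/fl tumors lay below fl/fl AOM+DSS colon, whereas 1 of the 9 knockout tumors reached into the range of knockout AOM+DSS colon. After AOM+DSS Aqp11 fell by 0.37 ± 0.12 in fl/fl colon (adjusted p = 0.0229) and by 0.72 ± 0.12 in knockout colon (adjusted p = 4.94e-06). The fl/fl call was lost without fl/fl AOM+DSS replicate 4 (-0.32, adjusted p = 0.0561) or replicate 9 (-0.31, adjusted p = 0.0625) and with all arrays shifted to 1 median (adjusted p = 0.0523), and with the squamous or endothelium marker mean in the model (-0.30 and -0.27, adjusted p = 0.116 and 0.17). Between AOM+DSS colon and tumors Aqp11 changed by -1.23 ± 0.13 in fl/fl (adjusted p = 7.11e-12) and -0.93 ± 0.13 in knockout samples (adjusted p = 8.62e-09).

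Aqp4, which in other tissues is anchored at the membrane by the dystrophin-associated complex, did not pass the threshold after AOM+DSS and was lower in tumors. It ran from 10.39 through a median of 11.20 to 11.62 in fl/fl and from 10.74 through 11.07 to 12.21 in knockout untreated colon. After AOM+DSS it ran from 10.25 through 10.68 to 11.83 and from 10.05 through 10.98 to 11.52. In tumors it ran from 8.41 through 9.40 to 10.71 in fl/fl and from 9.27 through 9.72 to 10.08 in knockout samples. The colon groups overlapped widely, and 6 of 8 fl/fl and 8 of 9 knockout tumors lay below the AOM+DSS colon of their genotype. The changes after AOM+DSS were -0.25 ± 0.21 and -0.21 ± 0.21 (adjusted p = 0.395 and 0.494). In tumors Aqp4 fell by 1.37 ± 0.22 in fl/fl (adjusted p = 5.68e-07) and by 1.23 ± 0.21 in knockout samples (adjusted p = 2.16e-06). The fl/fl tumors spread most, with an SD of 0.83 against 0.27 in knockout tumors. A pattern picked out after the values were seen is that the 2 fl/fl tumors with the highest Aqp4, at 10.71 and 10.39, had the lowest means over the distal colon position list (6 Hox genes measured), at 6.67 and 6.73, where the other 6 lay between 7.25 and 8.89. The knockout untreated sample with the highest Aqp4, 12.21, likewise had a list mean of 6.93 against 8.69 to 8.92 in the other 9. In fl/fl AOM+DSS colon, replicate 6 had the highest Aqp4, 11.83, and the lowest list mean, 8.10. The same order did not hold in knockout tumors, where the sample with the lowest list mean, 6.58, had an Aqp4 level of 9.72. Over the deviations of all 57 samples from their group means, Pearson's r of Aqp4 with this list mean was -0.620, a description without a test. Whether the region sampled differed between samples was not tested. With that list mean in the model the tumor falls were -1.80 ± 0.19 and -1.48 ± 0.17 (adjusted p = 1.08e-11 and 2.33e-10).

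Aqp3 was the only one of the 6 that rose, and its samples spread widely. Its level ran from 5.58 through a median of 5.84 to 7.63 in fl/fl and from 5.56 through 5.75 to 7.15 in knockout untreated colon. After AOM+DSS it ran from 5.79 through 7.86 to 9.14 and from 5.86 through 8.06 to 9.08. In tumors it ran from 5.55 through 5.93 to 9.15 and from 5.45 through 5.77 to 8.13. The untreated and tumor medians lay near the array medians of 5.92 to 6.04, so these groups may read partly background. After AOM+DSS 7 of 10 fl/fl and 8 of 10 knockout samples exceeded every untreated sample of their genotype, and the rest lay within the untreated range. Aqp3 rose 3.20-fold in fl/fl colon (log2 change 1.68 ± 0.39, adjusted p = 0.0012) and 3.45-fold in knockout colon (1.79 ± 0.39, adjusted p = 0.000274). It was lower in tumors than in AOM+DSS colon (-1.43 ± 0.42 in fl/fl, adjusted p = 0.00375, and -1.80 ± 0.40 in knockout samples, adjusted p = 0.000169). Against untreated colon the tumor values differed by 0.25 (95% interval -0.59 to 1.08) and -0.01 (-0.82 to 0.80). A single tumor of each genotype stood apart, fl/fl replicate 4 at 9.15 and knockout replicate 6 at 8.13. Without these the differences from AOM+DSS colon were -1.83 and -2.06, and that of fl/fl tumors from untreated colon was -0.15 in place of 0.25.

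The level of Aqp3 moved with markers of squamous epithelium, the stratified lining that meets the colon at the anus. After AOM+DSS 7 of the 13 squamous genes measured rose in each genotype and 0 fell, with a median change of 1.34 in fl/fl and 1.09 in knockout colon. Krt14, a keratin of basal layers, rose by 2.97 ± 0.53 and 3.08 ± 0.53, and Dsg3, a desmosomal cadherin of stratified epithelium, by 2.16 ± 0.47 and 2.40 ± 0.47. In tumors against AOM+DSS colon 6 and 8 of the 13 fell and 0 rose. The mean over the list ran from 5.62 to 9.28 in fl/fl and 5.63 to 8.34 in knockout untreated colon, from 5.62 to 9.95 and 5.64 to 10.10 after AOM+DSS, and from 5.99 to 9.22 and 5.91 to 8.73 in tumors. Each group thus held samples with and without these transcripts, and the 2 tumors with outlying Aqp3 were those with the highest list means. Over the deviations of 57 samples from their group means, Aqp3 and the list mean gave Pearson's r = 0.906 and Spearman's rho = 0.798 (both permutation p = 1e-05, the smallest that 100000 permutations within groups can give). Leaving out the 2 samples farthest from the median Aqp3 level gave r = 0.897, and r within the 6 groups ran from 0.889 to 0.978. With the list mean in the model, the rise after AOM+DSS was 0.54 ± 0.18 in fl/fl (adjusted p = 0.0347) and 0.73 ± 0.18 in knockout colon (adjusted p = 0.00173), and the falls in tumors were -0.48 and -0.75 (adjusted p = 0.0373 and 0.000713). The size of the Aqp3 changes was thus under the value without the list in each of these 4 comparisons. Among samples picked as examples, Aqp3 stood at 7.63 in fl/fl untreated replicate 1, whose list mean was 9.28. It stood at 5.79 in fl/fl AOM+DSS replicate 6, whose list mean was 5.62. Samples with like list means could still differ in Aqp3. It was 9.15 in fl/fl tumor replicate 4 at a list mean of 9.22, and 6.83 in fl/fl untreated replicate 3 at 8.61.

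**Figure D2:**
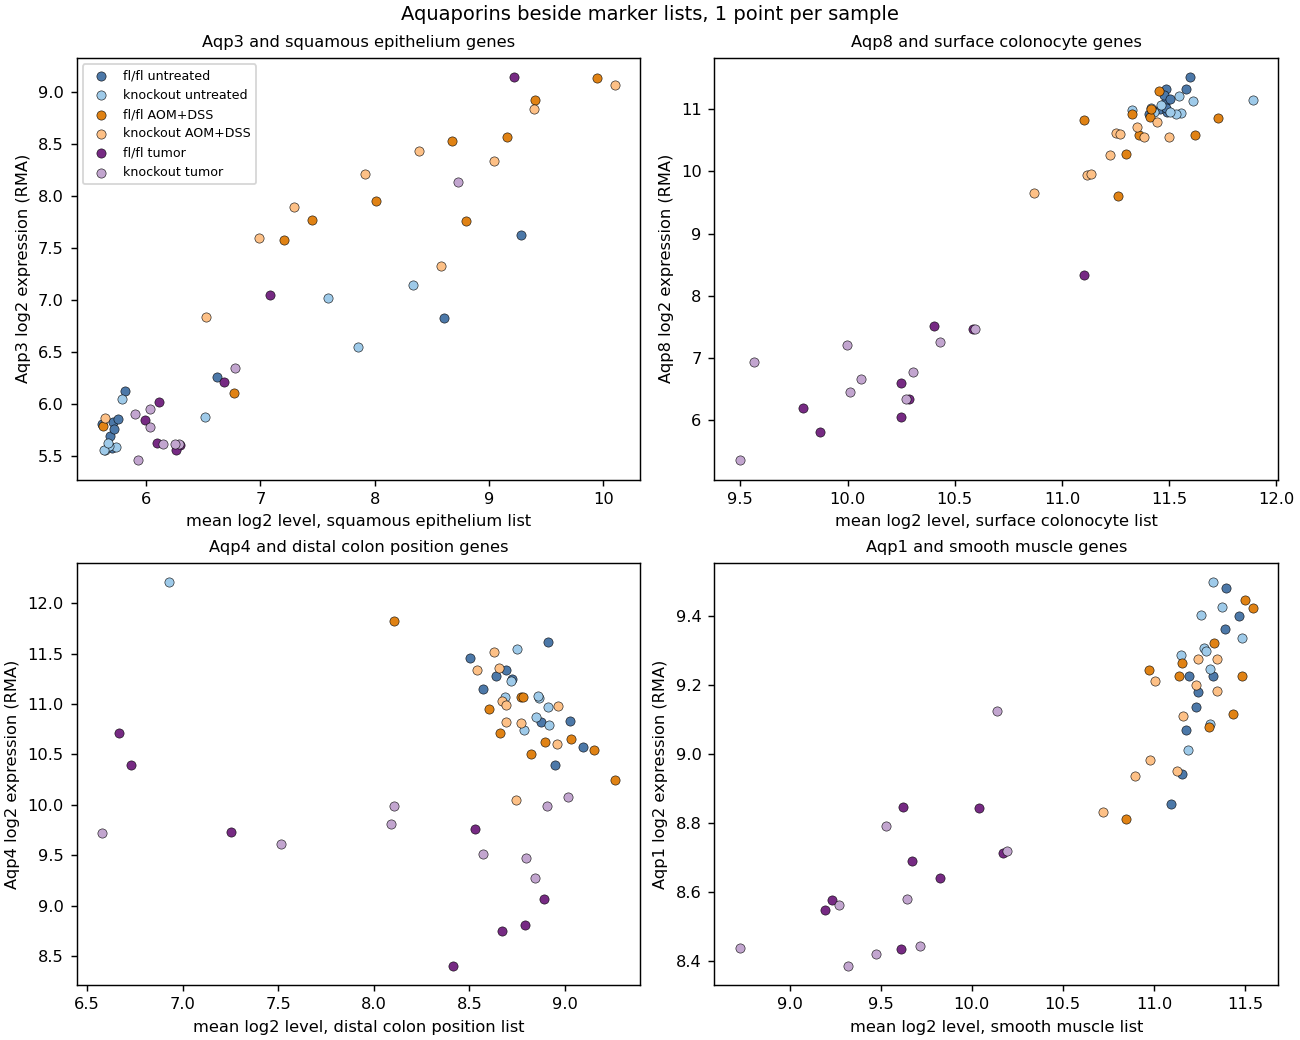
Log2 expression of Aqp3, Aqp8, Aqp4 and Aqp1 (vertical axes) against the mean log2 level of a marker list (horizontal axes), with 1 point per sample coloured by group. Aqp3 rises with the squamous list in every group. In the Aqp1 panel the smooth muscle means of tumors, 8.73 to 10.19, lie below those of the colon, 10.72 to 11.54.

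Aqp7, the other glycerol channel, changed little. Its highest group mean, 6.23, was close to the array medians of 5.92 to 6.04. The probe set may therefore read partly background, which would hide changes. The level of Aqp7 ran from 5.83 through a median of 5.97 to 6.31 in fl/fl and from 5.81 through 6.23 to 6.55 in knockout untreated colon. After AOM+DSS it ran from 5.71 through 5.92 to 7.41 and from 5.74 through 6.07 to 6.43. In tumors it ran from 5.51 through 5.88 to 6.10 and from 5.63 through 5.77 to 6.01. All groups overlapped, and only 1 sample, fl/fl AOM+DSS replicate 7 at 7.41, lay clearly outside the others. In knockout tumors Aqp7 fell by 0.29 ± 0.12 against AOM+DSS colon (adjusted p = 0.0442), a call that was lost in 10 of 19 fits that left out 1 array, with adjusted p of up to 0.0929 without knockout AOM+DSS replicate 10, and with the replicate number as a block (-0.28, adjusted p = 0.0565). Against untreated colon the knockout fall was 0.42 ± 0.12 (adjusted p = 0.00203). That call was lost with the surface colonocyte mean (-0.04, adjusted p = 0.943) or the smooth muscle mean (-0.15, adjusted p = 0.812) in the model. In fl/fl tumors the differences were -0.18 and -0.17 (adjusted p = 0.254 and 0.256). Without replicate 7 the difference between fl/fl tumors and AOM+DSS colon was -0.03.

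Aqp1 fell in tumors of both genotypes. Its level ran from 8.85 through a median of 9.20 to 9.48 in fl/fl and from 9.01 through 9.30 to 9.50 in knockout untreated colon. After AOM+DSS it ran from 8.81 through 9.24 to 9.45 and from 8.83 through 9.15 to 9.28. In tumors it ran from 8.43 through 8.67 to 8.85 and from 8.39 through 8.56 to 9.13. All 8 fl/fl tumors lay below the fl/fl untreated samples, and 8 of 9 knockout tumors lay below both knockout colon groups. Aqp1 was lower in tumors than in AOM+DSS colon (-0.55 ± 0.09 in fl/fl, adjusted p = 2.17e-07, and -0.49 ± 0.08 in knockout samples, adjusted p = 1.53e-06). After AOM+DSS the change was 0.03 ± 0.08 in fl/fl and -0.20 ± 0.08 in knockout colon (adjusted p = 0.83 and 0.0598); the knockout value passed under 6 of 13 other settings and in 4 of 20 fits that left out 1 array. Of the endothelial markers after AOM+DSS, 5 of 12 were higher in fl/fl and 8 of 12 in knockout colon and 0 lower, and 5 and 10 of the 12 were lower in tumors than in AOM+DSS colon. Against untreated colon, 2 of the 12 endothelial markers were higher in tumors of each genotype, and 2 in fl/fl and 3 in knockout tumors were lower. Aqp1 differed there by -0.53 in fl/fl and -0.68 in knockout samples. Of the 8 red blood cell genes listed only 2 were measured, and neither was called in tumors against AOM+DSS colon.

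**Figure D3:**
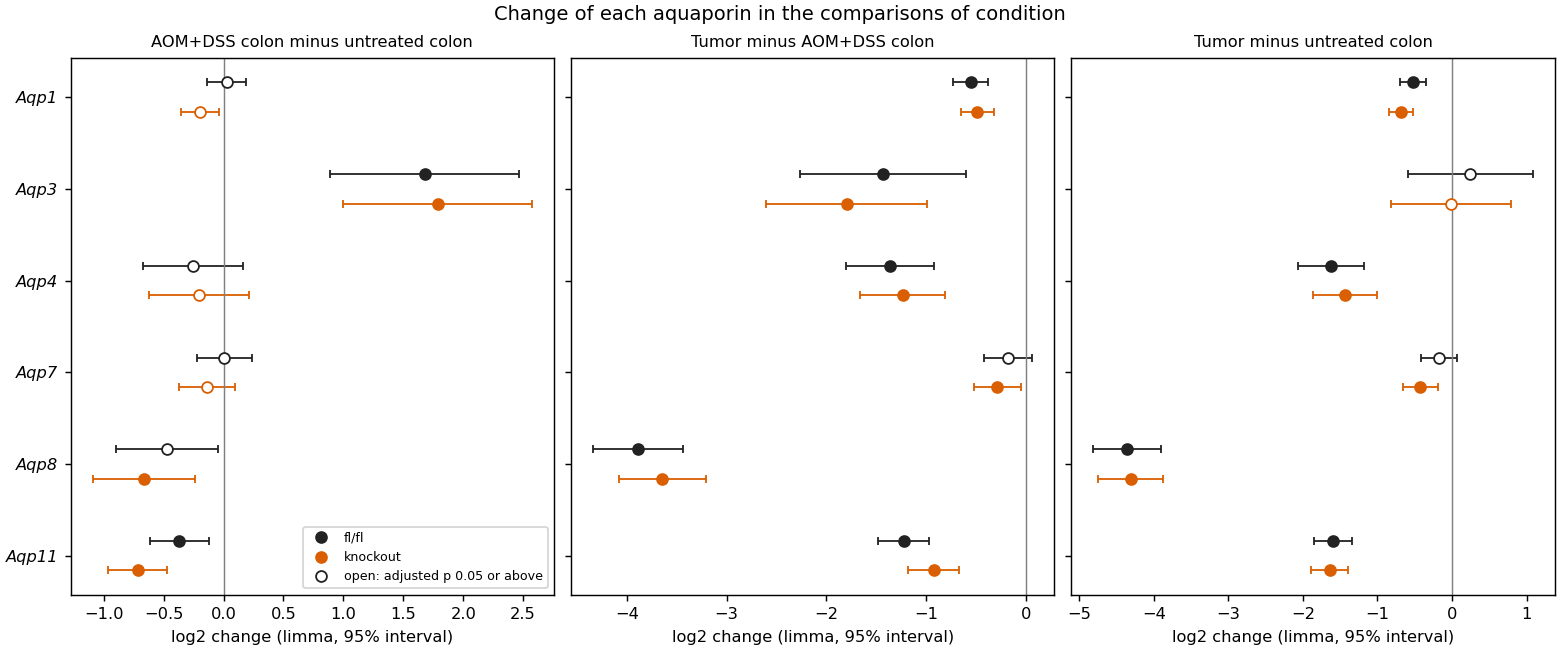
Log2 change of each aquaporin (horizontal axis) with its 95% interval from limma in the comparisons of AOM+DSS colon with untreated colon, tumors with AOM+DSS colon and tumors with untreated colon, for fl/fl (black) and knockout mice (orange); filled points have an adjusted p under 0.05. Aqp8 lies farthest from 0 in both tumor panels, and Aqp3 alone lies clearly above 0 after AOM+DSS.

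In the order of group means, Aqp8, Aqp4 and Aqp1 had all 4 colon groups above both tumor groups, with the one step larger than the SD of both neighbours lying between the lowest colon group and the higher tumor group (3.57 for Aqp8, 1.10 for Aqp4 and 0.43 for Aqp1). Aqp11 had such steps also from untreated to fl/fl AOM+DSS colon (0.37) and from there to knockout AOM+DSS colon (0.35). The order of Aqp3 had its one such step, of 1.43, between both AOM+DSS colon groups and the rest. No neighbours in the order of Aqp7 were that far apart.

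Many lists of cell markers moved with the tumor comparison. All 10 smooth muscle genes were lower in tumors than in AOM+DSS colon in both genotypes, with median changes of -1.70 and -1.61. The smooth muscle mean ran from 10.72 to 11.54 over all AOM+DSS and untreated colon samples and from 8.73 to 10.19 over all tumors. Of 11 surface colonocyte genes, 9 in fl/fl and 10 in knockout samples were lower in tumors than in AOM+DSS colon and 0 higher, led by Cyp2c55 (-4.28 ± 0.39 and -4.11 ± 0.38) and Muc3 (-1.23 ± 0.13 and -1.34 ± 0.13). That list's mean ran from 10.87 to 11.89 in colon and from 9.50 to 11.10 in tumors. Of 8 crypt base genes 6 rose in tumors of each genotype, among them Lgr5, the stem cell receptor for R-spondins (3.37 ± 0.14 and 3.15 ± 0.13), with a further 2 and 1 lower. Enteric glia markers were lower in 4 and 6 of 6 genes and fibroblast markers in 7 and 8 of 10, with 0 higher in either list. The enteric glia mean ran from 6.95 to 7.37 in AOM+DSS colon and from 6.51 to 6.88 in tumors, and the fibroblast mean from 9.48 to 10.58 and from 9.02 to 10.10. Goblet markers were lower in 4 and 5 of 8 genes, with 0 higher, and distal position genes in 5 and 2 of 6. Neutrophil markers were higher in 4 and 2 of 10 genes, with 0 lower, and their mean ran from 5.22 to 7.75 in AOM+DSS colon and from 5.79 to 8.22 in tumors. The part of the crypt base, glia, fibroblast, goblet and neutrophil markers in the aquaporin changes was not tested. With the surface colonocyte mean in the model, the tumor fall of Aqp8 was -2.37 ± 0.26 in fl/fl (adjusted p = 5.08e-10) and -1.99 ± 0.28 in knockout samples (adjusted p = 1.3e-07). The falls of Aqp4 were then -0.30 ± 0.31 and -0.08 ± 0.33 (adjusted p = 0.591 and 0.917), and those of Aqp11 -0.46 ± 0.17 and -0.09 ± 0.18 (adjusted p = 0.0438 and 0.8). The falls of Aqp3 and Aqp1 were larger with this mean than without it. They were -2.86 and -3.34 for Aqp3 (adjusted p = 0.000572 and 0.000119) and -0.63 and -0.57 for Aqp1 (adjusted p = 0.000539 and 0.00275). With the smooth muscle mean in the model, Aqp8 still differed by -4.23 ± 0.46 and -3.97 ± 0.45 (adjusted p = 6.79e-10 and 1.41e-09) and Aqp4 by -2.29 ± 0.43 and -2.13 ± 0.42 (adjusted p = 0.000157 and 0.000292). Aqp1 then differed by 0.12 ± 0.14 and 0.16 ± 0.14 (adjusted p = 0.739 and 0.571), and Aqp3 by 0.24 ± 0.82 and -0.18 ± 0.80 (adjusted p = 0.923 and 0.942). Aqp11 differed by -0.84 and -0.56 (adjusted p = 0.0304 and 0.182). The smooth muscle means of tumors and colon did not overlap, which widened the errors of these fits. Surface colonocyte means did not overlap in knockout samples either, with tumors up to 10.60 and AOM+DSS colon from 10.87. In fl/fl samples they barely met, at 11.10. The fits with that list therefore have a like limit. With the endothelium mean the tumor fall of Aqp1 was -0.46 ± 0.08 and -0.28 ± 0.10 (adjusted p = 6.44e-06 and 0.0149), and that of Aqp3 -0.92 and -0.73 (adjusted p = 0.0597 and 0.225). With the same mean, the fall of Aqp8 in knockout colon after AOM+DSS was -0.03 ± 0.22 (adjusted p = 0.969) and the rise of Aqp3 there 0.79 ± 0.44 (adjusted p = 0.252).

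**Figure D4:**
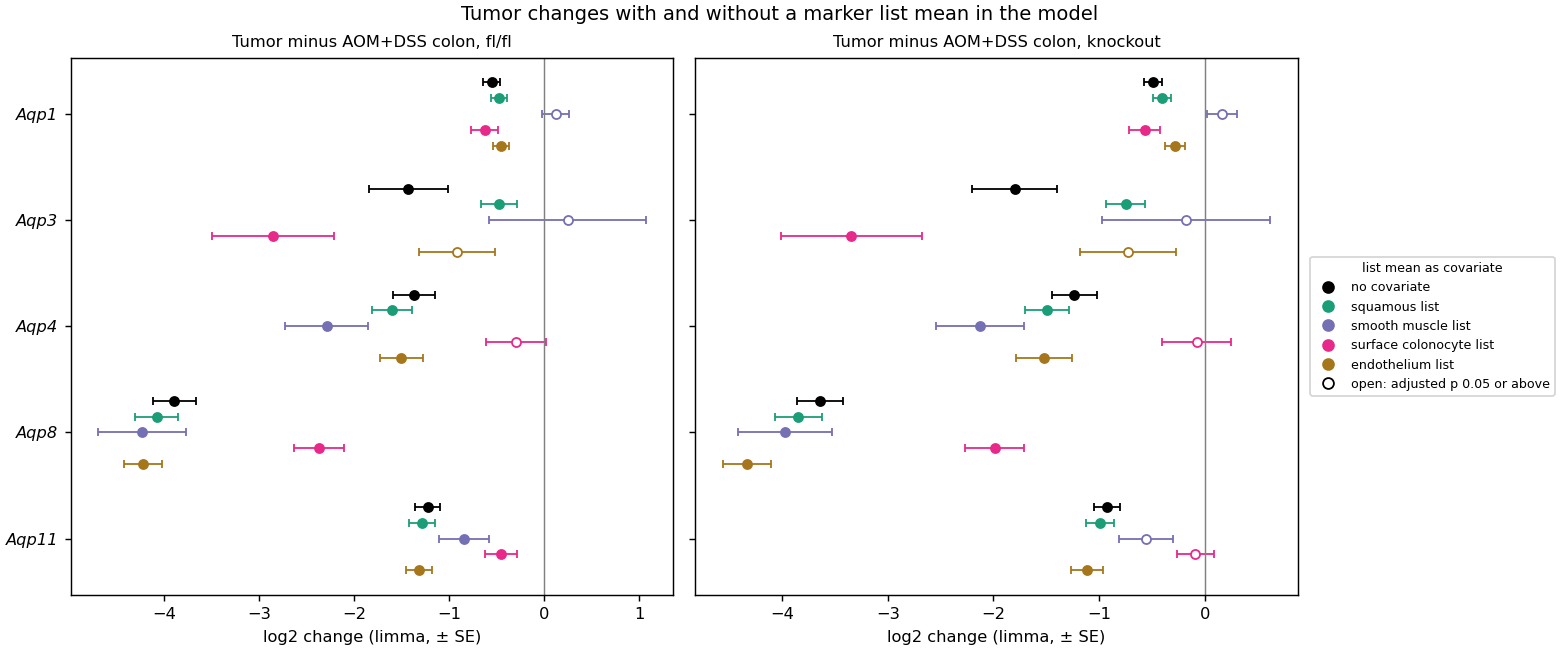
Log2 change between tumors and AOM+DSS colon (horizontal axis, ± SE) of the 5 aquaporins called lower in both genotypes, without a covariate (black) and with the mean of 1 marker list in the model (colours); filled points have an adjusted p under 0.05. Aqp8 lies between -4.33 and -1.99 in the fits shown, while Aqp1 lies at 0.12 and 0.16 with the smooth muscle mean and Aqp4 at -0.30 and -0.08 with the surface colonocyte mean.

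Loss of the epithelial insulin receptor was not accompanied by a called difference in any of the 6. In limma 0 of 6 passed in untreated colon, AOM+DSS colon or tumors, where 0.00451%, 0.541% and 0.00902% of all genes passed, and 0 of 6 passed in the 3 tests of a genotype difference of the responses, where 0% of all genes passed. At an unadjusted p under 0.05 only Aqp11 appeared, with a knockout minus fl/fl difference of -0.35 ± 0.12 in AOM+DSS colon (p = 0.00583, adjusted p = 0.153) and a difference between the genotypes' responses to AOM+DSS of -0.35 ± 0.17 (p = 0.0484, adjusted p = 0.812). The 2 tests share the AOM+DSS samples. The 95% intervals of the knockout difference in AOM+DSS colon ran from -0.74 to 0.11 for Aqp8, from -0.28 to 0.55 for Aqp4, from -0.76 to 0.82 for Aqp3, from -0.19 to 0.27 for Aqp7 and from -0.28 to 0.04 for Aqp1. Without fl/fl AOM+DSS replicate 7, an exclusion chosen after seeing the data, that difference of Aqp7 was 0.19 ± 0.08 in place of 0.04 (limma, adjusted p = 0.234). The genotype difference of its change between AOM+DSS colon and tumors was then -0.26 ± 0.12 in place of -0.11 (adjusted p = 0.675). The response of Aqp8 to AOM+DSS passed in knockout and not in fl/fl mice, and the difference between these responses was -0.20 ± 0.30 (adjusted p = 0.942), so a genotype difference was not shown.

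The other aquaporin genes measured were Mip, the lens channel, Aqp2, the vasopressin-regulated channel of the kidney, Aqp5 of secretory glands, Aqp6, Aqp9, an aquaglyceroporin of liver, and Aqp12 of the pancreas. In both comparisons of tumors with AOM+DSS colon 0 of these 6 passed in limma, and 0 passed after AOM+DSS in fl/fl colon. At an unadjusted p under 0.05 there was 1 in these 3 comparisons, Aqp12 in fl/fl tumors (-0.21, p = 0.044). Aqp12 fell by 0.25 ± 0.09 in knockout colon after AOM+DSS (adjusted p = 0.0352), and differed by -0.33 ± 0.10 and -0.44 ± 0.10 in fl/fl and knockout tumors against untreated colon (adjusted p = 0.00514 and 0.000138). Aqp9 rose by 0.21 ± 0.08 in knockout tumors against untreated colon (adjusted p = 0.0388). The highest group mean of Aqp6, 4.65, lay below the 25th percentile of all genes, and those of the other 5 lay between 5.93 and 6.69.

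Genes of salt absorption, which sets the osmotic gradient for water, also fell in tumors. Of 12 ion absorption genes measured, 10 in fl/fl and 9 in knockout tumors were lower than in AOM+DSS colon and 1 in each was higher, with median changes of -1.57 and -1.22. Slc5a8, a sodium-coupled transporter of short-chain fatty acids, fell (-2.37 ± 0.15 and -2.15 ± 0.15), and Slc9a2, a sodium-proton exchanger (-2.01 ± 0.15 and -2.31 ± 0.15). After AOM+DSS the list was mixed, with 2 higher and 2 lower in fl/fl and 2 higher and 5 lower in knockout colon. Fxyd4, a regulator of the sodium pump, fell (-1.52 ± 0.31 and -1.58 ± 0.31), and Scnn1g, a subunit of the epithelial sodium channel, rose by 1.09 ± 0.26 and 0.90 ± 0.26. Of 8 genes of chloride and potassium secretion 4 were lower in tumors of each genotype and 2 and 3 higher. Cftr, the chloride channel of crypt cells, fell (-1.43 ± 0.13 and -1.36 ± 0.13), while Slc12a2, the basolateral chloride entry cotransporter, rose by 0.47 ± 0.07 in fl/fl tumors.

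Of 10 genes of hormone input and transcription, a list that holds the neuropeptide Vip beside receptors and transcription factors, 7 and 8 fell in tumors and 0 and 1 rose. Nr3c2, the mineralocorticoid receptor, fell (-1.51 ± 0.11 and -1.56 ± 0.11), Nr3c1, the glucocorticoid receptor (-0.65 ± 0.07 and -0.74 ± 0.07), and Vip, a neuropeptide that drives secretion (-1.64 ± 0.16 and -1.70 ± 0.16). Vip is made by enteric neurons, and the enteric glia and smooth muscle markers were lower in the same comparison, in 4 and 6 of 6 and in 10 and 10 of 10 genes; their part in these falls was not tested. The genes of the complex that anchors Aqp4 split, with 3 of 7 higher and 3 lower in fl/fl tumors and 2 and 2 in knockout tumors. Dmd, dystrophin, fell (-1.63 ± 0.13 and -1.72 ± 0.13) and Dtna (-1.15 ± 0.11 and -1.08 ± 0.11), both of which are also expressed in muscle, while Sntb1, a syntrophin, rose by 0.95 ± 0.12 and 0.86 ± 0.12. Of 9 genes of glycerol handling, 2 rose and 2 fell after AOM+DSS in fl/fl colon and 0 rose and 4 fell in knockout colon. Gpam, which starts glycerolipid synthesis, fell there (-0.54 ± 0.08 and -0.60 ± 0.08). In tumors 3 of the 9 fell in each genotype and 1 and 2 rose. Of 6 genes of the osmotic stress response 4 and 3 rose after AOM+DSS and 1 fell in each genotype. Sgk1, a kinase that raises sodium channel activity, rose by 0.86 ± 0.17 in fl/fl colon and was lower in tumors than in AOM+DSS colon (-1.17 ± 0.18 and -0.88 ± 0.18). Adipocyte markers, listed beside Aqp7, were lower in tumors in 4 and 3 of 8 genes, with 0 higher.

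Within groups, the aquaporins varied together in part. Of the 15 pairs among the 6, 4 had a Benjamini-Hochberg adjusted permutation p under 0.05 for Pearson's r of deviations from the group means over 57 samples. Aqp8 and Aqp11 had r = 0.627 and rho = 0.597 (p = 2e-05 and 4e-05, adjusted p = 0.0003 and 0.0006), and r was 0.656 without the 2 samples farthest from the median Aqp8 level. It was positive in 5 of 6 groups, from -0.09 to 0.87. Aqp4 and Aqp8 had r = 0.429 and rho = 0.405 (adjusted permutation p = 0.0323 and 0.0272). Aqp3 ran against both, with r = -0.442 and rho = -0.407 for Aqp8 (adjusted permutation p = 0.0267 and 0.0272) and r = -0.401 and rho = -0.365 for Aqp4 (adjusted permutation p = 0.0302 and 0.0287). Without the 2 samples farthest from the median of the first gene the r values of these pairs were 0.377, -0.397 and -0.287. Of all 15 pairs, 2 then passed. Without the 2 largest deviations of the first gene they were 0.31, -0.277 and -0.363, and that of Aqp8 and Aqp11 was 0.605. Between the 6 groups r was uneven. It ran from -0.14 to 0.84 for Aqp4 and Aqp8, from -0.80 to -0.26 for Aqp3 and Aqp8, and from -0.69 to 0.32 for Aqp3 and Aqp4. A marker list mean was set against an aquaporin in 6 relations paired by known site, that of Aqp3 above among them. Some lists outside these 6 gave larger values, described here without a test. Aqp1 had r = 0.609 with the smooth muscle list, 0.559 with the fibroblast list and 0.509 with the enteric glia list. Aqp4 had r = 0.725 with the goblet list, -0.620 with the distal colon position list and -0.592 with the genes of its anchoring complex. Aqp8 and the surface colonocyte genes had r = 0.706 and rho = 0.632 (adjusted permutation p = 3e-05 and 6e-05), and r = 0.623 without the 2 samples farthest in level and 0.537 without the 2 largest deviations, an order kept below. Aqp11 and the same genes had r = 0.627 and rho = 0.641 (adjusted permutation p = 8e-05 and 6e-05; r = 0.58 and 0.614). Aqp4 and these genes had r = 0.505 and rho = 0.422 (adjusted permutation p = 0.00075 and 0.0033; r = 0.528 and 0.339), and r within groups ran from -0.02 to 0.80. Aqp1 and the endothelium list had r = 0.448 and rho = 0.393 (adjusted permutation p = 0.00296 and 0.00401, then r = 0.446 and 0.258), and r within groups ran from 0.02 to 0.85. Aqp7 and the adipocyte list had r = 0.312 and rho = 0.393 (adjusted permutation p = 0.00573 and 0.00401; r = 0.309 and 0.348).

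The genes whose within-group deviations over 57 samples were most like those of each aquaporin were found among 17095 named genes, as a description. For Aqp8 they were Car4, Hao2, Nr5a2, Oit1 and Slc9a2 (r from 0.85 to 0.82), and for Aqp11 Hadh, Ehhadh, Galm, Entpd5 and Maoa (0.82 to 0.75). For Aqp4 they were Cldn15, Ccn3, Galnt5, C1galt1 and Dpep1 (0.78 to 0.74), and for Aqp1 Itga1, Mcam, Tns1, Atp2b4 and Mpdz (0.74 to 0.67). Those of Aqp3 were Tmprss11b, Tmprss11d, Adgrf4, Trp63 and Lypd3 (0.97 to 0.93), of which Trp63 belongs to the squamous list. Those of Aqp7 were Acot12, Gimd1, Mfsd4b2, Leap2 and Enpp7 (0.81 to 0.75), and they rested on fl/fl AOM+DSS replicate 7. In that sample Enpp7, the alkaline sphingomyelinase of the small intestine, stood at 8.43 against 4.74 to 5.35 in the other 9 of its group, and Leap2, a liver and small-intestinal peptide, at 6.49 against 3.50 to 3.90. Without it, an exclusion chosen after seeing the data, the 5 nearest genes were Nyap1, Dnah5, Trpm5, Acot12 and Rasal1, with r from 0.56 to 0.54, and Leap2 and Enpp7 had r = 0.30 and 0.39.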

How the data were processed

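The values are log2 expression as the authors deposited them; the submitters' processing notes name RMA as the method. RMA quantile-normalizes arrays, so a shift of all RNA cannot be seen, and it compresses changes of dim genes. RNA was extracted with a mirVana kit and 250 ng was labelled by the WT Plus kit, per the labels' protocols. Of 41345 probe sets, 23521 carry 1 gene symbol, 1814 several and 16010 none here; the brightest per gene left 22180 genes. Each of the 6 aquaporins has 1 probe set. Samples were grouped by title; the labels call them biological replicates.

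Comparisons used limma 3.58.1 in R 4.3.3 (6 groups, 57 arrays, 51 residual degrees of freedom, two-sided, Benjamini-Hochberg over 22180 genes, threshold 0.05), checked on simulated arrays. Correlations used deviations from group means and 100000 permutations within groups. List means are plain means of log2 values. The number of arrays limits precision. The members and all gene lists were chosen with earlier results of these data known. Named genes were the 6, all other aquaporins, up to 4 genes per list with the smallest adjusted p, and for each member the 5 most alike, leaving out predicted models, small RNA, receptor segment, olfactory, vomeronasal and histone genes. Alternatives changed the scaling, the dim gene filter, probe sets, variance model, samples in the fit, array weights, replicate block, single arrays and 5 list means as covariates. Aqp4 sequence and protein sequences were not used here.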

Additional observations from a re-analysis of the deposited data

Results flagged for a closer look

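Of 36 group values of the 6 aquaporins searched for a sample far from the rest, 5 were found by Dixon's criterion, which chance alone meets in about 1 in 20 groups. Aqp3 in knockout tumor replicate 6 stood at 8.13 against a next highest of 6.34, and without it the mean of the group is 5.78 in place of 6.04. Aqp3 in fl/fl tumor replicate 4 stood at 9.15 against 7.05, and without it the mean is 5.99 in place of 6.38. Aqp4 in fl/fl AOM+DSS replicate 6 stood at 11.83 against 11.07, and without it the change in fl/fl tumors is -1.25 in place of -1.37 (limma, adjusted p = 2.52e-06). That sample also had the lowest distal colon position list mean of its group, 8.10. Aqp7 in fl/fl AOM+DSS replicate 7 stood at 7.41 against 6.07. Aqp11 in knockout untreated replicate 9 stood at 9.63 against 9.29, and without it Aqp11 still fell by 0.67 in knockout colon after AOM+DSS (adjusted p = 2.26e-05).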

How the results depend on the processing

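The count of aquaporins called after AOM+DSS in fl/fl colon was 2 and became 1 with arrays shifted to 1 median, with the squamous or endothelium list mean as covariate, and without fl/fl AOM+DSS replicate 4 or 9 (leave-one-out range 1 to 2); it became 3 when only the compared groups were fitted, where Aqp8 passed (adjusted p = 0.0237). With the smooth muscle mean the counts in tumors against AOM+DSS colon were 3 in fl/fl and 2 in knockout samples, and 3 in knockout tumors against untreated colon; with the surface colonocyte mean both knockout counts were 3. Under the smooth muscle mean the tumor change of Aqp1 turned to 0.12 and 0.16 against AOM+DSS colon and to 0.14 and 0.047 against untreated colon (fl/fl and knockout), and that of Aqp3 in fl/fl tumors to 0.24; under the surface colonocyte mean that of Aqp7 in knockout tumors turned to 0.026. Their cause was not tested. Of the pairwise correlations 4 passed and 2 did without the 2 farthest arrays. Over 136 pairs of samples with equal replicate numbers, from all groups together, the median r of deviations was 0.05, against -0.012 in other pairs. Of the 136 pairs, 41 were over 0.1, and 5 of 57 samples were best with their own number. Tumors and AOM+DSS colon of the same genotype were not examined alone, and whether equal numbers mark the same mouse was not tested. With the replicate number as a block only Aqp7 in knockout tumors lost its call (-0.28, adjusted p = 0.0565).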
